A study of Homo sapiens with 4 samples.

Results

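The genes described here encode the proteins of the mitochondrial ribosome, chosen as every row of the deposited expression table whose gene symbol consists of MRPL or MRPS with a number and at most 1 closing letter. The rule found 76 genes, 49 with an MRPL and 27 with an MRPS symbol, among 22458 genes measured. MRPS24 is not analysed here. LN229 cells, an established human glioblastoma line, were transfected without serum with a nontargeting siRNA pool (NT, 2 arrays) or with an siRNA pool against RAB38 (siRAB38, 2 arrays). Fetal bovine serum was brought to 1.5% in both groups a day later, and total RNA was taken 48 h after transfection. The measurements thus come from 1 cell line, 1 time point and 1 siRNA pool per target.

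The mitochondrial ribosome is the machine that translates the few mRNAs encoded by mitochondrial DNA, all of which specify subunits of the respiratory chain and ATP synthase. Its rRNAs are made in the organelle, but all of its proteins are encoded in the nucleus, made in the cytosol and imported. It has a large subunit, which joins amino acids and releases the chain through a tunnel, and a small subunit, which holds and decodes the mRNA. Many of its proteins descend from bacterial ribosomal proteins, and others were added in mitochondria. The study turned to mitochondrial energy metabolism after an enrichment analysis of these arrays.

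The silencing was examined first. RAB38, the silenced small GTPase, had log2 values of 4.69 and 4.78 in NT against 2.52 and 3.43 in siRAB38 (log2 fold change -1.76, standard error 0.30). Both siRAB38 values lay below the median of their array, with array 1 the lower. The array medians over all rows lay between 3.47 and 3.51, and the arrays correlated at 0.993 to 0.994 across genes. Of the 10 markers of glial and glioblastoma cells examined, VIM had 11.3 and 11.4 in NT while GFAP, the classical astrocyte marker, had 3.11 and 3.08. The 11 markers of blood, vessel, epithelial, pigment and nerve cells had NT means from 1.29 to 6.12, the highest being SYT1, whose row held the same value in all 4 arrays.

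With siRAB38, MRPL genes lay slightly below their NT level as a group, while MRPS genes were split. Of the 49 MRPL genes, 41 had a log2 fold change below 0 and 8 above, with a median of -0.08, or 94.4% of the NT level. Of the 27 MRPS genes, 14 lay below 0, 12 above and MRPS22 at 0, with a median of -0.01, or 99.4% of NT. Over all 22458 genes, 48.3% lay below 0 and the median was 0.01. Whether the MRPL and MRPS subgroups differ was not tested. The symbols do not always name the subunit, since MRPS18A and MRPS30 belong to the large one. Grouped by the subunit that holds the protein, the medians lay closer, at -0.08 for the large and -0.05 for the small subunit. The single genes ranged from a log2 fold change of -0.32 for MRPS31 to 0.29 for MRPS25, which is 80.4% to 122% of NT. Bulk RNA cannot tell fewer expressing cells from less mRNA per cell.

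No mitochondrial ribosome gene reached an adjusted p under 0.05 with limma, a linear model that moderates each gene's variance with that of all genes, and 0 of all 22458 genes did (0.0%). The smallest adjusted p among the 76 was 0.72. At an unadjusted p under 0.05 limma gave 1 lower member, MRPS2, against 3.1% of all genes lower, and 0 higher members, against 3.75% of all genes. The methods' t-test gave 2 lower and 1 higher at the same threshold, against 3.1% and 3.46% of all genes. The 95% intervals of the 76 fold changes reached from -0.70 to 0.70 on the log2 scale, and their standard errors ran from 0.10 to 0.20. With 2 arrays against 2, an exact permutation test cannot give a two-sided p below 0.333. The study explains its n as independent experiments, with another number as its example, and gives n = 2 for these arrays. No source used here says outright that these same-group arrays stem from independent cultures. The p-values therefore cover array-to-array spread alone, which could be technical.

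**Figure D1:**
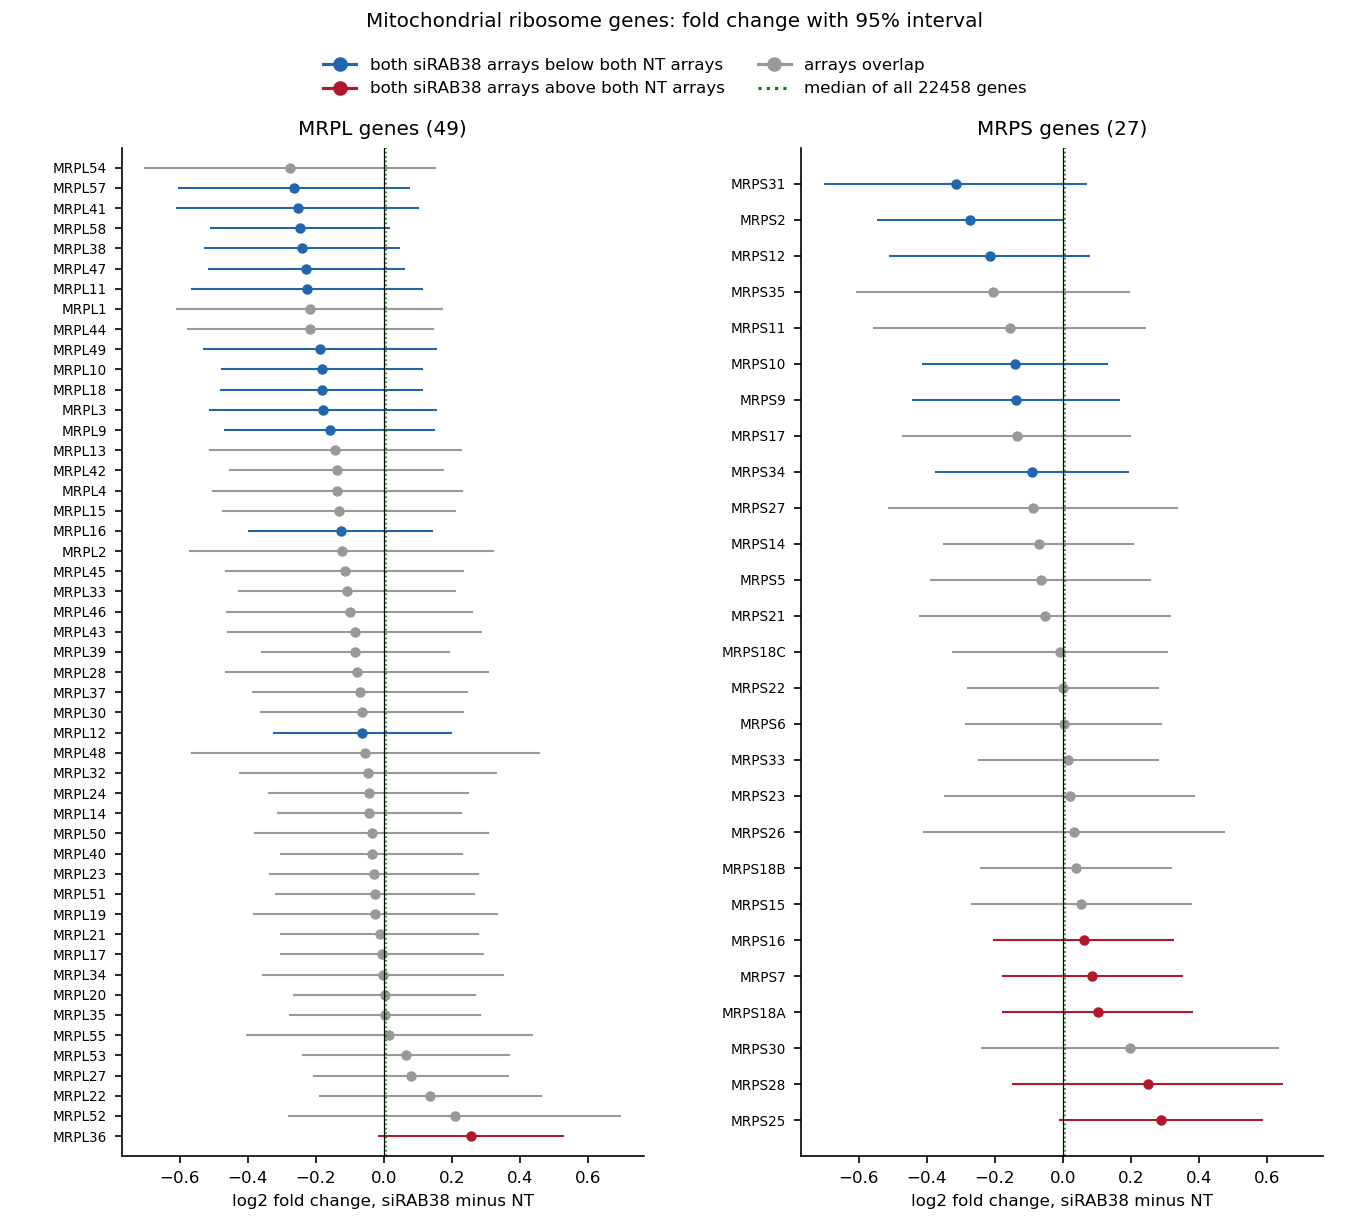
Log2 fold change of siRAB38 over NT for each of the 49 MRPL genes (left) and 27 MRPS genes (right), as a point with its 95% interval from limma (2 arrays per group). Blue marks genes whose siRAB38 arrays both lie under the NT arrays, red the opposite and grey overlapping arrays, and the dotted line is the median of all genes. Of the MRPL points 41 lie left of 0, and the MRPS points lie on both sides.

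The arrays themselves were then compared. In 19 of the 76 genes the siRAB38 arrays were both lower than either NT array (25%, against 17.2% of all genes), and in 6 they lay above (7.89%, against 18.8%). The lower ones comprised 13 MRPL genes (26.5% of MRPL genes) and 6 MRPS genes (22.2% of MRPS genes), against 17.2% of all genes. Of the higher ones only MRPL36 has an MRPL symbol (2.04% of MRPL genes, against 18.8% of all genes). The other 5 are MRPS25, MRPS28, MRPS18A, MRPS7 and MRPS16. They make up 18.5% of MRPS genes, close to the 18.8% of all genes. In 51 genes the arrays overlapped. A difference between the group means that exceeded the gap between the arrays of either group was found in 11 genes on the lower side (14.5%, against 11.9% of all genes) and in 4 on the higher side (5.26%, against 13.0%). Whether these shares differ from those of all genes was not tested.

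Lower large-subunit genes with non-overlapping arrays had their smallest p in MRPL58, the peptidyl-tRNA hydrolase of the large subunit that frees stalled ribosomes. It had log2 values of 7.31 and 7.35 in NT against 7.08 and 7.09 in siRAB38 (log2 fold change -0.25, standard error 0.10, unadjusted p = 0.060, adjusted p = 0.72 from limma). The arrays of each group lay close together, and the groups did not overlap. MRPL38, a protein of the central protuberance, had 7.98 and 8.01 in NT and 7.83 and 7.68 in siRAB38 (log2 fold change -0.24, standard error 0.11). MRPL47, the counterpart of a bacterial protein at the mouth of the exit tunnel, had 6.17 and 6.33 in NT and 6.0 and 6.04 in siRAB38 (log2 fold change -0.23, standard error 0.11). In both, the groups did not overlap. MRPL57 and MRPL41 have no bacterial counterpart. MRPL57 had 5.51 and 5.64 in NT and 5.43 and 5.19 in siRAB38, and MRPL41 had 5.75 and 6.01 against 5.70 and 5.54. In both, siRAB38 array 1 lay just under NT array 1 and most of the difference came from NT array 2 and siRAB38 array 2. Without siRAB38 array 2 the log2 fold change of MRPL57 was -0.14 in place of -0.27. Without NT array 2, that of MRPL41 was -0.12 in place of -0.25 and that of MRPL47 was -0.15.

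The stalk of the large subunit, which recruits translation factors to the ribosome, is built from MRPL10, MRPL11 and MRPL12. MRPL11 had log2 values of 7.0 and 7.05 in NT against 6.93 and 6.66 in siRAB38, and MRPL10 had 6.05 and 6.12 against 5.98 and 5.82. MRPL12 had 7.43 and 7.41 in NT and 7.38 and 7.33 in siRAB38. In all 3 the siRAB38 arrays lay below the NT arrays, by a log2 fold change of -0.23 for MRPL11, -0.18 for MRPL10 and -0.06 for MRPL12. Without siRAB38 array 2, these values were -0.09, -0.10 and -0.04. Other large-subunit genes with well-known roles overlapped or nearly so. MRPL44, a relative of ribonuclease III that is mutated in an inherited cardiomyopathy, had 6.19 and 6.34 in NT and 5.91 and 6.19 in siRAB38. MRPL45, which helps to hold the tunnel exit at the inner membrane, had 7.60 and 7.88 in NT and 7.66 and 7.58 in siRAB38. MRPL3, another gene of inherited cardiomyopathy, had 7.93 and 8.04 against 7.92 and 7.69, and its siRAB38 array 1 lay next to NT array 1. Its log2 fold change was -0.18, and -0.06 without siRAB38 array 2, while that of MRPL44 was -0.22, and from -0.35 to -0.08 with 1 array left out.

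MRPL36, the counterpart of the small bacterial protein L36, stood on the other side of the large subunit. It had log2 values of 8.74 and 8.75 in NT and 9.05 and 8.95 in siRAB38 (log2 fold change 0.26, standard error 0.11, unadjusted p = 0.059, adjusted p = 0.72 from limma), or 119% of NT. Both siRAB38 arrays exceeded both NT arrays, and leaving out 1 array gave values from 0.21 to 0.31.

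Small-subunit genes with non-overlapping arrays lay on both sides. MRPS2, the counterpart of bacterial S2, had log2 values of 6.04 and 5.97 in NT against 5.77 and 5.69 in siRAB38 (log2 fold change -0.27, standard error 0.11, unadjusted p = 0.049, adjusted p = 0.72 from limma). It ran from -0.31 to -0.23 without 1 array. MRPS31, which has no bacterial counterpart, had 4.28 and 4.63 in NT and 4.18 and 4.11 in siRAB38. Its log2 fold change was the lowest of all members at -0.32, but the NT arrays differed by 0.35, and without NT array 2 it was -0.14. MRPS12, the counterpart of the decoding-site protein S12, had 4.34 and 4.40 in NT and 4.24 and 4.07 in siRAB38. Its log2 fold change was -0.22, and -0.13 without siRAB38 array 2. MRPS10, MRPS9 and MRPS34 had log2 fold changes of -0.14, -0.14 and -0.09. Without siRAB38 array 2, those of MRPS9 and MRPS34 were -0.04 and -0.02.

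On the higher side, MRPS25, a mitochondria-specific small-subunit protein, had log2 values of 5.32 and 5.41 in NT against 5.57 and 5.73 in siRAB38 (log2 fold change 0.29, standard error 0.12, unadjusted p = 0.055, adjusted p = 0.72 from limma). MRPS28 had 4.33 and 4.22 in NT and 4.70 and 4.34 in siRAB38, so that siRAB38 array 2 lay next to NT array 1. Without siRAB38 array 1 its log2 fold change was 0.07. MRPS7, whose bacterial counterpart starts the folding of the head of the small subunit, had 6.85 and 6.81 against 6.94 and 6.89. MRPS16, a gene of inherited mitochondrial disease, had 7.32 and 7.37 against 7.40 and 7.42. These differences were small, with log2 fold changes of 0.09 for MRPS7 and 0.06 for MRPS16, the latter 0.03 without NT array 1. MRPS22, another gene of inherited mitochondrial disease, had 7.17 and 7.04 in NT and 7.07 and 7.13 in siRAB38, and its group means were equal (95% interval from -0.28 to 0.28).

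**Figure D2:**
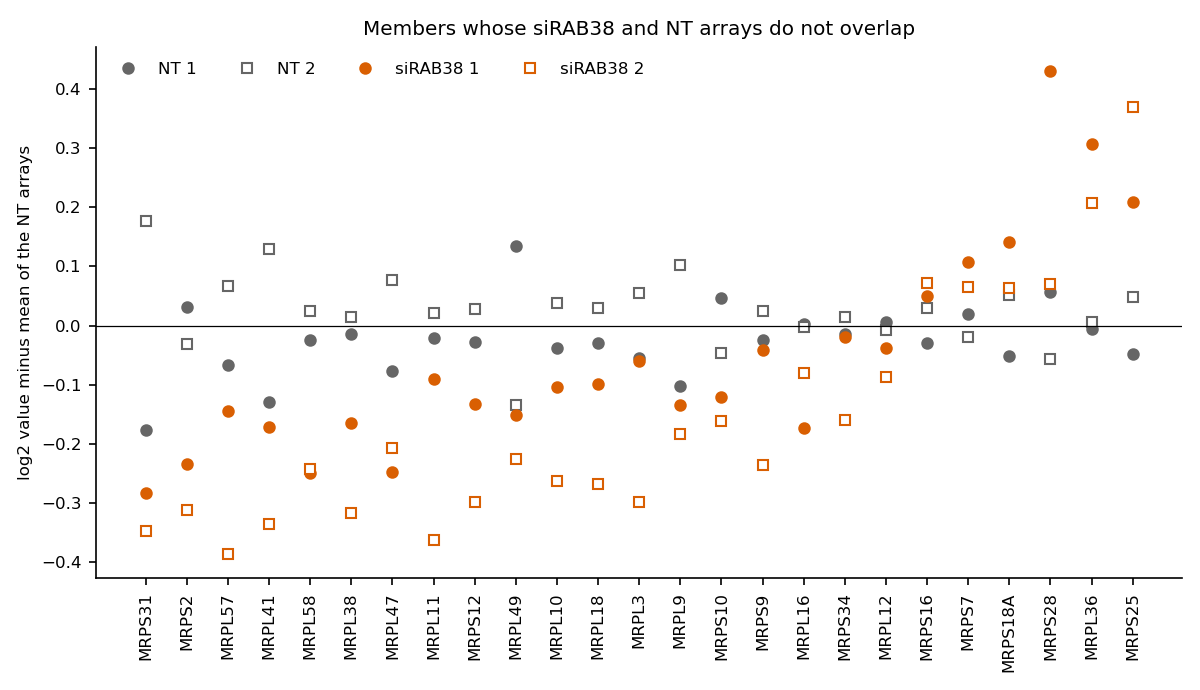
Log2 value of each array minus the mean of the NT arrays (vertical axis) for the 25 members whose siRAB38 and NT arrays do not overlap, ordered by fold change (horizontal axis). Grey symbols are the NT arrays and orange symbols the siRAB38 arrays. The 19 genes on the left have siRAB38 below NT and the 6 on the right above, and in most genes on the left siRAB38 array 2 is the lowest symbol.

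MRPS18A, MRPS18B and MRPS18C are paralogs related to bacterial S18, and their proteins hold different places. The proteins of MRPS18B and MRPS18C sit in the small subunit, whereas those of MRPS18A and of MRPS30 are part of the large subunit despite their symbols. MRPS18A had log2 values of 7.85 and 7.96 in NT against 8.05 and 7.97 in siRAB38, a log2 fold change of 0.10, which was 0.05 without NT array 1. MRPS18B had 6.88 and 6.89 against 6.99 and 6.86, and MRPS18C had 4.80 and 4.86 against 4.71 and 4.92, so that the arrays of both overlapped. MRPS30 had 6.95 and 7.37 in NT and 7.29 and 7.42 in siRAB38, a log2 fold change of 0.20 with overlapping arrays. Grouped by the subunit that holds the protein, 41 of 51 large-subunit genes lay below 0 with a median of -0.08, and 14 of 25 small-subunit genes with a median of -0.05.

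Genes with and without a bacterial counterpart both lay mostly below 0 in the large subunit, MRPS18A and MRPS30 left aside. Of its 30 MRPL genes with a counterpart 24 had a fold change below 0, the median being -0.06 on the log2 scale, and of its 19 MRPL genes without one 17 did, with a median of -0.10. In the small subunit 10 of 15 genes with a bacterial counterpart lay below 0, with a median of -0.07, against 4 of 10 mitochondrial ones, with a median of 0.01. The mitochondrial ones include MRPS18B, which is related to bacterial S18 but has no bacterial counterpart at its position. In these classes the shares of genes with siRAB38 below NT in all arrays were 26.7% and 26.3% for the large and 26.7% and 20.0% for the small subunit, against 17.2% of all genes. The shares with siRAB38 above NT were 3.33% and 0.0% for the large and 20.0% and 10.0% for the small subunit, against 18.8% of all genes.

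**Figure D3:**
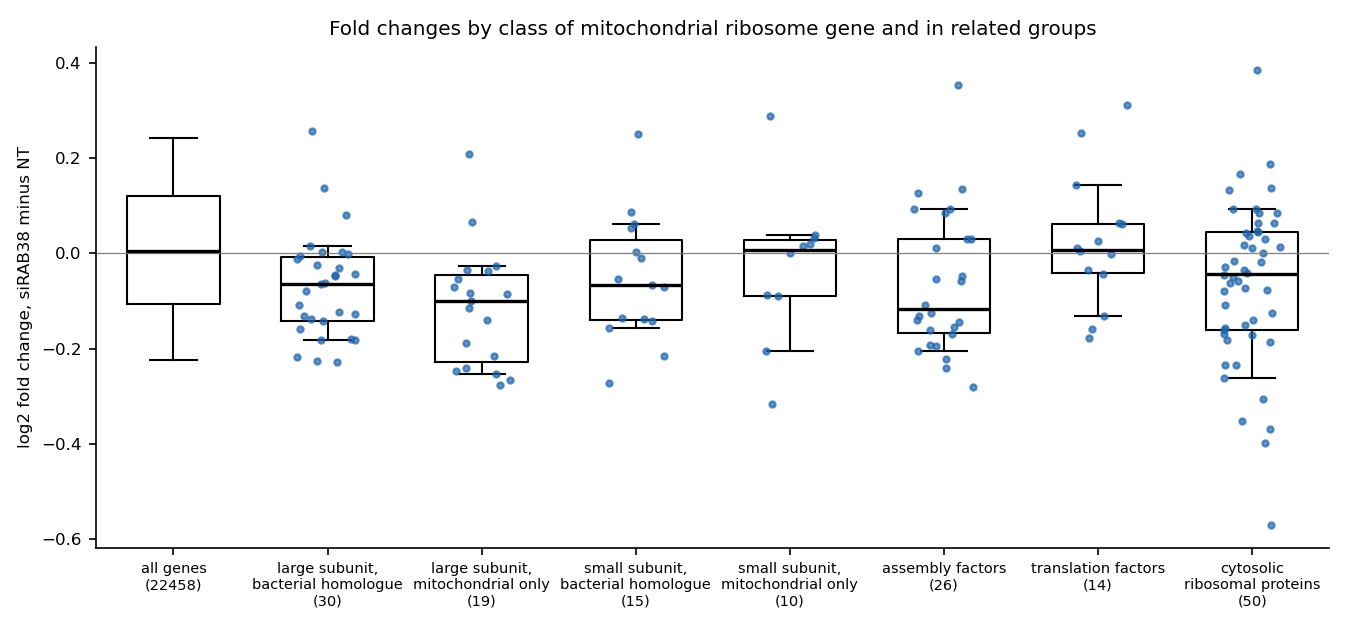
Log2 fold change of siRAB38 over NT (vertical axis) by class of mitochondrial ribosome gene and in related groups, with the number of genes in brackets. Points are genes, boxes span the quartiles with the median as a thick line, and whiskers reach the 10th and 90th percentiles. Large-subunit classes have medians of -0.06 and -0.10, and all genes have 0.01.

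The members also differed between arrays of 1 group. Relative to the mean of the 4 arrays, the median MRPL gene lay at 0.02 in NT array 1, 0.09 in NT array 2, -0.01 in siRAB38 array 1 and -0.09 in siRAB38 array 2. For the MRPS genes these medians were -0.02, 0.05, 0.03 and -0.06. NT array 2 was the highest of the 4 arrays in 26 of 49 MRPL genes (53.1%, against 23.4% of all genes), and siRAB38 array 2 was the lowest in 26 (53.1%, against 26.5%). The siRAB38 arrays thus sat at different distances from NT. Set against the NT mean, siRAB38 array 1 was below in 32 of 49 MRPL genes (65.3%, against 48.3% of all genes) and siRAB38 array 2 in 39 (79.6%, against 49.2%). For the MRPS genes the counts were 13 and 17 of 27.

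The spread within the groups went the same way in most members. NT array 2 exceeded NT array 1 in 53 of the 76 genes (69.7%, against 50.7% of all genes), with a median difference of 0.06. siRAB38 array 2 lay below siRAB38 array 1 in 52 (68.4%, against 50.5%), with a median difference of -0.08. The MRPL median of the log2 fold change ran from -0.12 to -0.05 when 1 array was left out, whereas the MRPS median was 0.03 without siRAB38 array 2 and -0.08 without NT array 1. siRAB38 array 2, the array with the lower members, was the one with the higher RAB38 value. Its part in the result was not tested. The widest gaps between arrays of a group were found in MRPL52, with 3.07 and 3.59 in siRAB38, MRPL48, with 4.33 and 3.83 in siRAB38, and MRPS26, with 5.85 and 6.28 in NT.

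**Figure D4:**
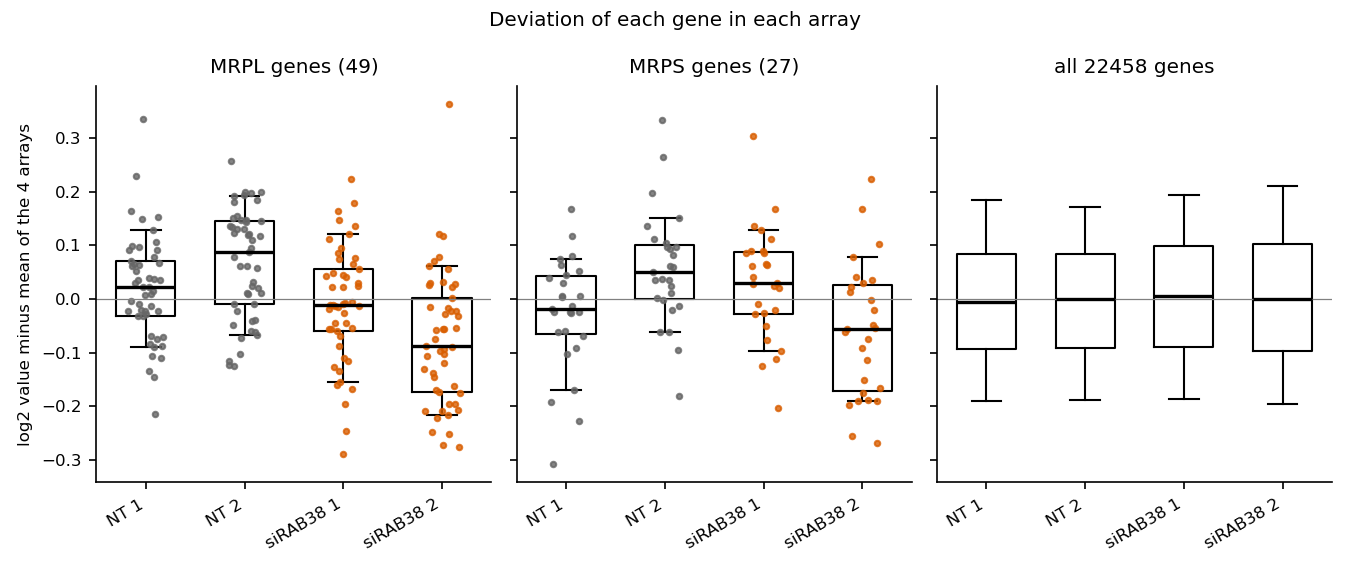
Log2 value of each gene minus its mean over the 4 arrays (vertical axis), by array (horizontal axis), for the MRPL genes, the MRPS genes and all genes. Points are genes, boxes span the quartiles with the median as a thick line, and whiskers reach the 10th and 90th percentiles. The MRPL median is 0.09 in NT array 2 and -0.09 in siRAB38 array 2, while the boxes of all genes are centred near 0 in every array.

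Partners of the ribosome were examined from lists. Of 5 subunits that carry other symbols, 4 had a row named in the annotation used, and the arrays overlapped in these 4. AURKAIP1 is not analysed here. DAP3, a GTP-binding protein of the small subunit, had a log2 fold change of -0.02, PTCD3 of 0.01 and CHCHD1 of 0.07. KGD4, which once carried the symbol MRPS36 and is now known as a subunit of the 2-oxoglutarate dehydrogenase complex, had 0.07. Of 26 assembly factors and rRNA-modifying enzymes, 17 lay below 0, with a median of -0.12. Both siRAB38 arrays were below both NT arrays in 7 (26.9%, beside 17.2% of all genes) and above in 2 (7.69%, beside 18.8%). The siRAB38 arrays differed here too. Array 1 was below the NT mean in 12 of the 26 (46.2%, beside 48.3% of all genes) and array 2 in 20 (76.9%, beside 49.2%). The genes of that list with the smallest p were MRM3, MRM2 and MRM1, which methylate the rRNA of the large subunit. MRM2 had log2 values of 7.91 and 7.93 in NT against 7.70 and 7.69 in siRAB38 (log2 fold change -0.22, standard error 0.10). MRM3 had -0.28 and MRM1 -0.24, also without overlap between the groups.

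Of 14 factors and helpers of mitochondrial translation with a named row, 6 lay below 0 and 8 above, and the median was 0.01. The release factor MTRF1L had log2 values of 4.65 and 4.81 in NT against 4.99 and 5.10 in siRAB38 (log2 fold change 0.31, standard error 0.12, unadjusted p = 0.045, adjusted p = 0.72 from limma). MTRES1, which acts in rescue of stalled ribosomes, had 0.25, and TACO1, an activator of translation of a cytochrome oxidase subunit, had -0.18. Of 50 cytosolic ribosomal protein genes, 31 lay below 0, with a median of -0.04. In 12 of them (24.0%, against 17.2% of all genes) both siRAB38 arrays were below both NT arrays. In 2 (4.0%, against 18.8%) both were above. NT array 2 was again the highest and siRAB38 array 2 the lowest, with medians of -0.05, 0.10, 0.02 and -0.07 relative to the mean of the 4 arrays. At an unadjusted p under 0.05 in limma, 3 of them were lower and 0 higher, against 3.1% and 3.75% of all genes. The lower ones were RPL9 with -0.57, RPS24 with -0.37 and RPS3A with -0.40. RPS3A was a dim row, with log2 values of 2.19 and 1.94 in NT and 1.65 and 1.69 in siRAB38. RPL9 had 3.25 and 3.55 against 2.81 and 2.85, beside array medians of 3.47 to 3.51. Of the 50 rows, 3 fell among the dimmest 30% of genes. None of the genes of these lists passed the adjusted threshold in limma.

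The promoters of the members, which the choice of genes did not use, were searched for short strings of bases. The RefSeq window from 250 bases before to 50 after the first listed start was at hand for 68 of the 76 genes, on GRCh38.p14. Matches on either strand were counted to the cores of sites of transcription factors known for genes of mitochondrial proteins or growth, namely CCGGAAG for ETS factors, GCATGCG for NRF1, AAGATGG for YY1 and CACGTG, the E-box bound by MYC and others. The ETS core was found in 29 promoters (42.6%), against 14.5% of the promoters of 14378 protein-coding genes tested and 10.7% of all 27305 promoters. The YY1 letters were found in 22 (32.4%, against 6.5% and 6.06%), the NRF1 letters in 7 (10.3%, against 5.13% and 4.13%) and the E-box in 6 (8.82%, against 8.87% and 7.43%). No match to any of them was found in 23 (33.8%, against 70.3% and 75.5%). The shares were 40.5% for ETS and 33.3% for YY1 in MRPL promoters, and 46.2% and 30.8% in MRPS promoters. The ETS and YY1 strings can share the letters AAG, but 0 of the 9 member promoters that hold both had them joined in this way.

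Whether members with and without these letters differ was not tested. The median log2 fold change was -0.05 in the 29 genes with the ETS core and -0.07 in the 39 without it. It was -0.04 in the 22 genes with the YY1 letters and -0.07 in the 46 without them. Of the 29 genes with the ETS core 9 had both siRAB38 arrays below both NT arrays, as did 9 of the 39 without, against 17.2% of all genes. Both siRAB38 arrays were above in 2 and 3 of them, against 18.8% of all genes. A match to letters is a description of the sequence and not a site of binding. The promoters of 3 lower members that hold the ETS core, and of MRPL36 on the higher side, are shown to place the letters, in lower case with the matches in capitals, from 5′ to 3′ along the strand of the gene. In MRPL58 (chr17:75012420-75012719, plus strand) the ETS core begins 8 bases before the start, with a second match on the opposite strand 193 bases before it. In MRPL47 (chr3:179604589-179604888, minus strand) and MRPS12 (chr19:38930694-38930993, plus strand) the ETS core begins 39 and 5 bases before the start, and the YY1 letters lie on the opposite strand. In MRPL36 (chr5:1799788-1800087, minus strand) the E-box begins 56 bases before the start and the YY1 letters, on the opposite strand, 34 bases before it.
MRPL58: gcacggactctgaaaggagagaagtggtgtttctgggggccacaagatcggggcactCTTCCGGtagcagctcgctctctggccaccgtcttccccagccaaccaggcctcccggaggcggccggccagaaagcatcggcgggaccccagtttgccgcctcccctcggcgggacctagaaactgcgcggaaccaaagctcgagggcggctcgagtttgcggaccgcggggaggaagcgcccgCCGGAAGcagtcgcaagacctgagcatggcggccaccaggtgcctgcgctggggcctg
MRPL47: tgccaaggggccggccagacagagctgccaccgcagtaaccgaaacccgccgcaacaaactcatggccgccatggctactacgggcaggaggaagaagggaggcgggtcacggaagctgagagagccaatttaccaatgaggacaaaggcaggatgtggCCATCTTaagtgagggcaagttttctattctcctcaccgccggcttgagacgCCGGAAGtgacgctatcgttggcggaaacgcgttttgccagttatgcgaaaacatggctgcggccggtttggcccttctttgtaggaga
MRPS12: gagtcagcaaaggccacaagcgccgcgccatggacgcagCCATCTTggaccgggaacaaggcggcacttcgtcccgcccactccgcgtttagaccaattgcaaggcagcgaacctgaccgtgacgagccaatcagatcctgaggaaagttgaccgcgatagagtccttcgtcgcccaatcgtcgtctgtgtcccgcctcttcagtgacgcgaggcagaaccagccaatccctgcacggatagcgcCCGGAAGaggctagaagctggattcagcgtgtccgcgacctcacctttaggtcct
MRPL36: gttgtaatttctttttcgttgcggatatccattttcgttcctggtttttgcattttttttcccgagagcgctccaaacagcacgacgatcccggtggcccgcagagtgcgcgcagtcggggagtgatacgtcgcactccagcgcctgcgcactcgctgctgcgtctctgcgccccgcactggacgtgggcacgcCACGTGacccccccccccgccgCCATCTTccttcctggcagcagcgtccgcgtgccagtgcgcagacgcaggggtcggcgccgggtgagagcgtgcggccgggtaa

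**Figure D5:**
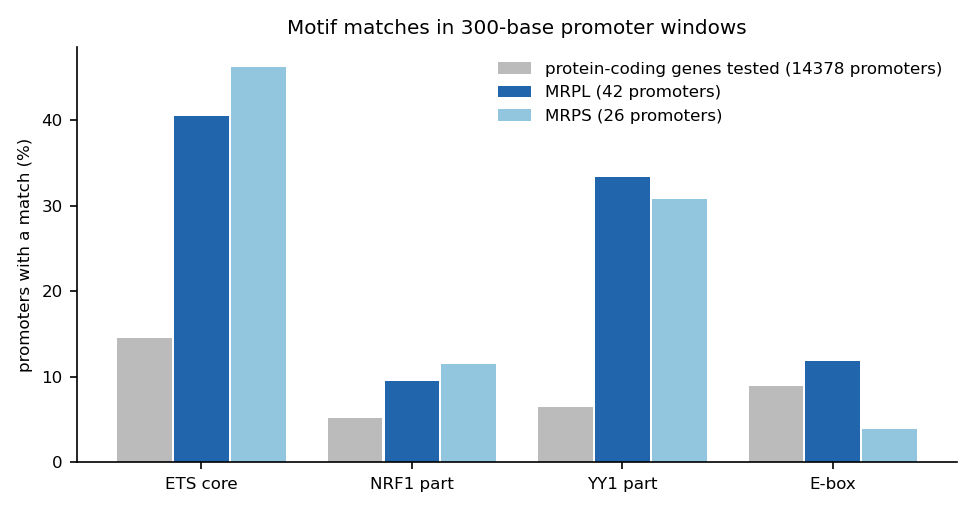
Share of promoter windows with a match to each set of letters (vertical axis, percent) in 14378 protein-coding genes tested (grey), 42 MRPL genes (dark blue) and 26 MRPS genes (light blue). The ETS core reaches 40.5% and 46.2% in the MRPL and MRPS promoters against 14.5% of protein-coding genes. The E-box lies at 11.9% (5 MRPL promoters) and 3.85% (1 MRPS promoter) against 8.87%.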

How the data were processed

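Total RNA of LN229 cells was labelled with the Affymetrix WT Plus kit by the authors. The deposited table holds 1 log2 value per row and array, which the authors made with RMA (background correction, quantile normalization between arrays and summary of probes). Version 1.60.0 of affy under R 3.5.1 is listed in the submitters' processing notes. The probe set definition and genome build are not given in the sources used here. Quantile normalization aligns the arrays' distributions, so a shift shared by all genes would be largely removed. The number of arrays limits the precision.

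Of 23786 rows, 22458 have 1 gene symbol in the platform annotation and 1328 have none and were left unnamed. All 76 member symbols equal the RefSeq symbol of their gene ID. None of the 76 fell among the dimmest 30% of genes, and no filter on signal was used. In 3 members (MRPL39, MRPL44 and MRPL54) an NT and a siRAB38 array held an identical value and were counted as overlapping. The log2 values were compared with limma 3.58.1 (R 4.3.3), using eBayes with no intensity trend, which estimated 3.15 prior degrees of freedom, and adjusted by Benjamini-Hochberg over 22458 genes at a threshold of 0.05. The procedure was run on simulated arrays drawn independently, with planted changes far larger than those of the members. That run cannot show how the procedure handles changes of the members' size or shifts shared by many genes of an array. The t-test that the study's methods name was run as an alternative.

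Named members were, in each subgroup, up to 6 lower and 6 higher genes of smallest p among those without overlap, the MRPS18 paralogs, 10 members with well-known roles and the 3 with the widest gap between arrays. MRPS30 was added after its values were seen, as were MRPL18, MRPL46 and MRPS11. Of the other lists, up to 3 genes with the smallest p were named. The members, lists and motifs were chosen with earlier results of these data known. Classes by subunit and descent were written from general knowledge. Alternatives covered the rows tested, a filter on dim rows, the variance prior, the normalization, the replicate number, the test and leaving out each array.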

Additional observations from a re-analysis of the deposited data

How the results depend on the processing

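The number of genes past the adjusted threshold stayed at 0 among the 76 members and among all genes under every alternative run. At an unadjusted p under 0.05, an intensity trend in the variance prior gave 3 lower and 2 higher members. Of all genes, 3.48% were lower and 3.76% higher in that run. A robust prior gave 0 lower and 0 higher members, against 3.02% and 3.68% of all genes. Quantile normalization applied once more gave 0 lower and 1 higher, against 3.41% and 3.47%. With the methods' t-test there were 2 lower and 1 higher, against 3.1% and 3.46%. The replicate numbers of the labels do not say whether same-numbered arrays belong together. Deviations of same-numbered arrays correlated at -0.0546 over all genes and 0.0556 over the members. With 2 arrays per group this cannot settle whether the samples were paired. With the replicate number as a block, the count of lower members was 0, and no other member count changed, while 2.59% of all genes were lower and 2.97% higher at that threshold, against 3.1% and 3.75%.

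Centring each array on its median moved the median of all genes to -0.01 and gave 25 members with siRAB38 below NT in all arrays and 4 above, against 19 and 6. The shares of all genes were then 21% and 16.3%, against 17.2% and 18.8%, and 44 MRPL and 17 MRPS genes lay below 0. Without 1 array there were fewer arrays to separate. Members below NT in all arrays then ran from 28 to 42 and members above from 12 to 19. Of all genes, 31.5% to 34.7% lay below and 33.1% to 36.1% above. The MRPL median ran from -0.12 to -0.0503 and the MRPS median from -0.0797 to 0.0341, turning sign without siRAB38 array 2. Of the members named by rule, 6 turned sign when 1 array was left out. MRPS22, at 0 with all arrays, ran from -0.0626 to 0.0626. MRPS30, MRPL18, MRPL46 and MRPS11, which were added later, are not part of this count. Fold changes (log2) spanned -0.258 to 0.0263 for MRPL45, -0.304 to 0.196 for MRPL48, -0.0506 to 0.468 for MRPL52, -0.0297 to 0.105 for MRPS18B, -0.117 to 0.0989 for MRPS18C and -0.181 to 0.245 for MRPS26. The cause was not tested.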

Other observations

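Some mitochondrial ribosome genes start near the start of a gene that runs the other way on the opposite strand. Whether such pairs share a promoter was not tested. Of the 68 members with a promoter window, 21 had the start of such a head-to-head neighbour within 1000 bases, and 17 of these neighbours were measured. Of the 17, 12 had a log2 fold change below 0 and 8 had both siRAB38 arrays below both NT arrays, while 0 had both above. Over all genes the shares were 48.3%, 17.2% and 18.8%. The fold change had the same sign as that of the member in 11 of the 17. The 17 entries include MRPL46 and MRPS11, which are neighbours of each other, with log2 fold changes of -0.10 and -0.16. Their arrays overlapped, with 7.25 and 6.96 in siRAB38 against 7.14 and 7.26 in NT for MRPL46. MRPS11 had 7.94 and 7.55 in siRAB38 against 7.90 and 7.91 in NT. MRPL57 had -0.27 and its neighbour SKA3, a kinetochore gene, had -0.25, with log2 values of 8.05 and 8.22 in NT against 7.97 and 7.80 in siRAB38. MRPL18 had -0.18 and its neighbour TCP1, a chaperonin subunit, had -0.20. Other pairs differed. MRPS12 had -0.22 while SARS2, the mitochondrial seryl-tRNA synthetase, had 0.01, and MRPS2 had -0.27 while PIERCE1 had 0.11. MRPS18C had -0.01 and its neighbour HELQ, a DNA helicase, -0.20, while MRPS18B had 0.04 and PPP1R10 0.15. MRPS30 had 0.20 and its neighbour MRPS30-DT -0.22. The MRPL18, MRPL46 and MRPS30 pairs were chosen after their values were seen. At an unadjusted p under 0.05, 0 of the 17 neighbours passed in limma, and 0 passed after adjustment.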
